A study of Mus musculus with 384 samples.

Results

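The genes described are 10 that encode the contractile apparatus of smooth muscle, Acta2, Tagln, Myl9, Cnn1, Tpm1, Tpm2, Myh11, Cald1, Des and Actg2. They were picked by symbol, and all 10 were found among the 40594 genes that both batches' count tables hold. The data are single-cell FACS-seq of mouse kidney, in which a sorter drops a cell into every well of a plate and the RNA of each well is barcoded and read as a library of its own. The gates compared are PDGFRB+CD45- cells and PDGFRB+CD45+ cells, each in batches 1 and 2, which gave 4 plates of 96 wells, 384 wells in all. The labels give an age of 8 weeks for all 4 plates, and names of wells include UUO, an abbreviation left unexplained there. The labels name no strain, genotype, surgery or number of animals, so each plate was taken as 1 sample, a difference between gates was checked only by its repeat in the other batch, and no p-value was computed. The title of the series concerns the share of myofibroblasts that monocytes supply in the fibrotic kidney. The gates address it by asking whether PDGFRB+ cells with the leukocyte protein CD45 carry the transcripts of contractile cells.

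Smooth muscle shortens when myosin filaments pull on actin filaments. Calcium-bound calmodulin activates a kinase that phosphorylates the regulatory light chain of myosin, and tropomyosin, caldesmon and calponin lie along the actin filament and modify how myosin meets it. In the kidney this machinery is found in the walls of arteries and arterioles, in mesangial cells and in pericytes, and fibroblasts take up part of it when they turn into myofibroblasts in scar tissue. Acta2 is the usual marker of the myofibroblast, whereas Myh11 and Cnn1 are usual markers of differentiated smooth muscle.

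Of the 384 wells, 368 held at least 10000 reads and 500 genes and were kept. These were 93 wells of each CD45- plate, and 92 (batch 1) and 90 (batch 2) of the CD45+ plates. Statements on single wells use the 79 and 82 CD45- wells and the 76 and 78 CD45+ wells of at least 50000 reads, whose median depth was 302826 and 348004 reads in the CD45- plates and 287380 and 302747 in the CD45+ plates. Levels are CPM, the reads of a gene scaled to the same total of reads on genes, of a well or of the summed kept wells of a plate. The 6 leukocyte markers, which include Ptprc, the gene of CD45, summed to 151 and 426 CPM in the CD45- plates, against 28044 and 23762 CPM in the CD45+ plates. Ptprc itself had 469 and 303 CPM in the CD45+ plates, the lowest of the 6 there. Pdgfrb had 294 CPM (batch 1) and 220 CPM (batch 2) in CD45-, against 0.113 and 5.73 CPM in the CD45+ plates. It reached 100 CPM in 23 of 79 and 20 of 82 CD45- wells, against 0 of 76 and 1 of 78 CD45+ wells. The gates sort on protein, so these RNA levels do not settle the PDGFRB label of either gate. In 7 CD45- wells at least 2 of the 6 leukocyte markers reached 100 CPM, and in 1 CD45+ well fewer than 2 did. The count of contractile genes called between the gates was the same without those 8 wells. Reads of red blood cell genes moved with the gate too, with a list of 5 summing to 13893 and 2918 CPM in CD45-, against 23.1 and 20.9 CPM in CD45+, and their part in the results was not tested.

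Contractile genes were higher in the CD45- gate. They are given as 2 kinds by how many wells carried them, a division set in advance with earlier results of these data known. Acta2, Tagln, Myl9, Tpm1, Tpm2 and Cald1 were broad, each at or above 100 CPM in 38 to 75 of the 79 CD45- wells of batch 1 and 31 to 71 of the 82 of batch 2. Cnn1, Myh11, Des and Actg2 were restricted, each at that level in 5 to 13 and 7 to 15 of the same wells. In the CD45+ plates the broad genes reached 100 CPM in 2 to 17 of 76 wells and 0 to 10 of 78 wells, and the restricted genes in 0 or 1 of 76 and 0 of 78. By the rule used here, at least 4-fold between plate levels in the same direction in both batches on the log2(CPM + 1) scale, 9 of the 10 genes were higher in CD45-, 0 were higher in CD45+, and Myh11 passed in batch 2 alone. Over all 12882 genes with a mean of at least 1 CPM, 12.9% were called higher in CD45- and 4.33% higher in CD45+, and among the 4162 genes with a mean of at least 30 CPM 8.7% were called higher in CD45- and 6.37% higher in CD45+. In batch 1 taken alone 29.5% of the genes were at least 4-fold higher in CD45- (19.7% of those with a mean of at least 30 CPM), and in batch 2 taken alone 31.9% (18%). The median log2 ratio of CD45- over CD45+ was 3.76 in batch 1 and 5.60 in batch 2 for the 10 genes, and 0.39 and 0.56 over all genes tested.

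**Figure D1:**
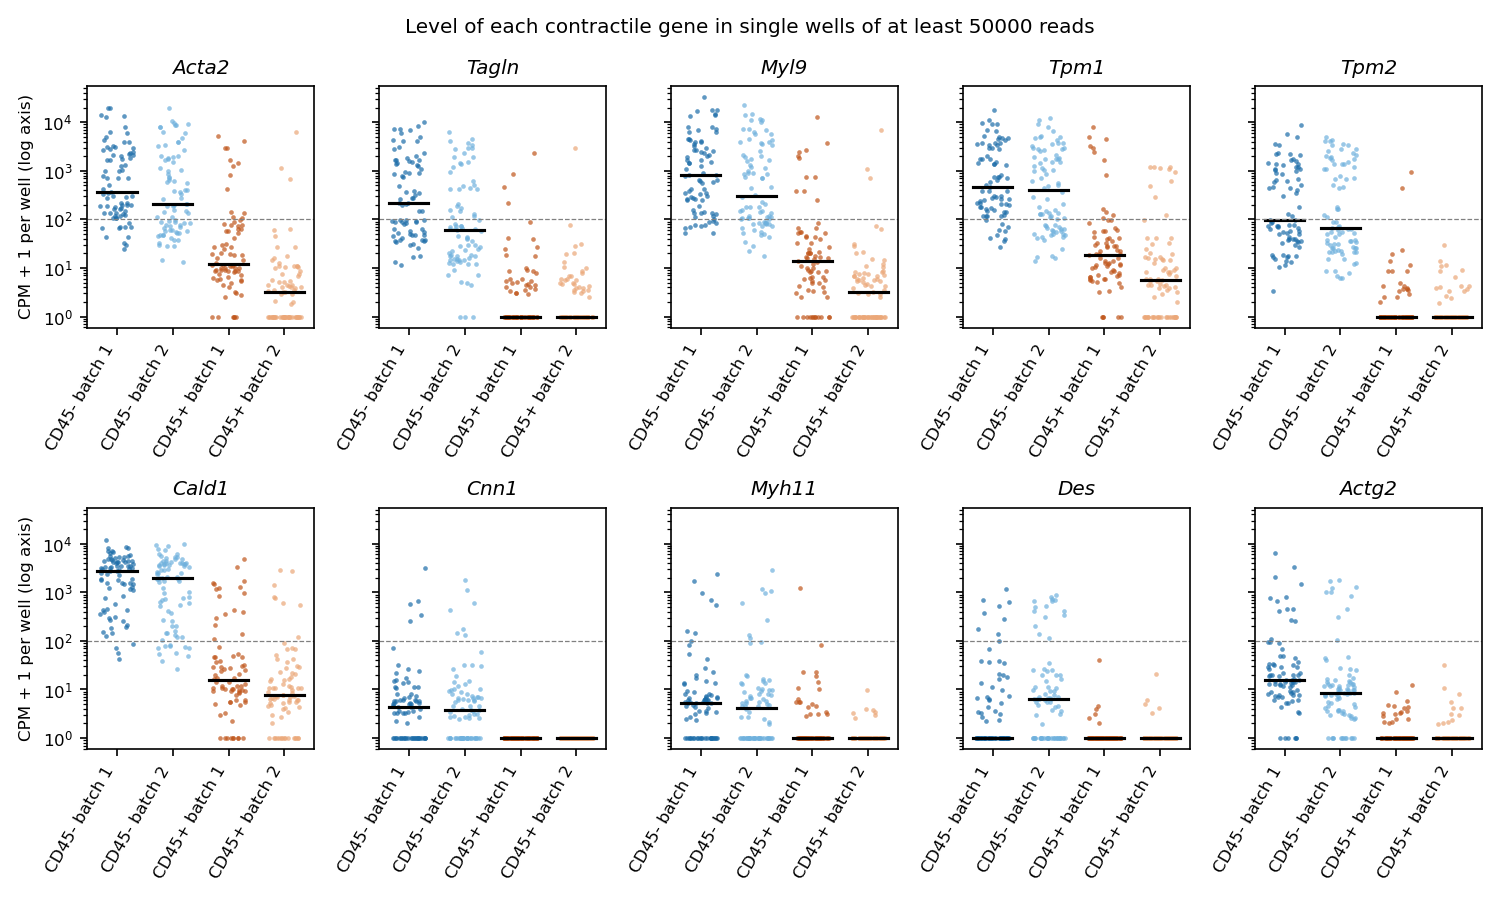
CPM + 1 of each contractile gene in every well of at least 50000 reads, on a log axis; each point is 1 well, the black bar is the plate median and the dashed line marks 100 CPM. The CD45- plates stand left of the CD45+ plates. Acta2, Tagln, Myl9, Tpm1, Tpm2 and Cald1 reach 100 CPM in 31 or more wells of each CD45- plate. Cnn1, Myh11, Des and Actg2 do so in at most 15 wells of a plate.

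The stretch around the start of transcription is shown for 2 broad and 2 restricted genes, because the transcription factor SRF is known to act on smooth muscle genes through the CArG box, a 10-base motif that opens with CC and closes with GG around A and T bases. The sequences are RefSeq's, build GRCm38.p6, from 250 bases before to 50 after the annotated start, written 5′ to 3′ along the gene's strand. The table used holds 7 of the 10 genes in 8 windows, Cald1 having 2. A CArG box was searched on both strands in its strict form, with 6 A or T bases between CC and GG. Forms with a C or G inside, such as ccctatatgg in the Acta2 window, were not counted. The strict form is in capitals, and the Myl9 window alone of the 8 holds it, 161 bases before the start. Of all 32851 windows of this length, 1.63% hold it. The 6 letters TATAAA, which do not overlap that motif here, were found in 1 of the 2 Cald1 windows and in 13.6% of all windows. These are matches of letters only.
Myl9, chr2:156775214-156775513, plus strand: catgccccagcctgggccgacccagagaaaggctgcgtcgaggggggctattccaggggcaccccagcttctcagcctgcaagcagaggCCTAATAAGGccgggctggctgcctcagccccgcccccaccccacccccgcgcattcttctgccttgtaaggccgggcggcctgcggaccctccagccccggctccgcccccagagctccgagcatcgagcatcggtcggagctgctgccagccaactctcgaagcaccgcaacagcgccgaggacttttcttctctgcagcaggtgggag
Acta2, chr19:34255324-34255623, minus strand: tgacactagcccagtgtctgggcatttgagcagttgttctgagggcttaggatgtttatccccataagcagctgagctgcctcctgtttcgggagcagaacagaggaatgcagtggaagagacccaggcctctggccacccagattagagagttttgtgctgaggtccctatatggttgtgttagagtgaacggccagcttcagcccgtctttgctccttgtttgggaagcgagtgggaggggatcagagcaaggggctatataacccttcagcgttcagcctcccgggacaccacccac
Cnn1, chr9:22099003-22099302, plus strand: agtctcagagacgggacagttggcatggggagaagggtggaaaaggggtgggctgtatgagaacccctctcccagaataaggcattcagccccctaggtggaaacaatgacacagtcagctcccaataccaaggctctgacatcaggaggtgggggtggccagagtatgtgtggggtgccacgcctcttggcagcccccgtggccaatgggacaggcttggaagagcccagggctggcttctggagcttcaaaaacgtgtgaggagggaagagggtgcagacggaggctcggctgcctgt
Des, chr1:75360042-75360341, plus strand: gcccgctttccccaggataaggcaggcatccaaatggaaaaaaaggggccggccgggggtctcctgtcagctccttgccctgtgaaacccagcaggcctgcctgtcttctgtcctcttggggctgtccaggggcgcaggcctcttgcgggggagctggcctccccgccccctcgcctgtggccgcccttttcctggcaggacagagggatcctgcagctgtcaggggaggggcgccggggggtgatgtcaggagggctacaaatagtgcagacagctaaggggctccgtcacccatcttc

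Among the actins, Acta2 (ENSMUSG00000035783), the alpha actin of vascular smooth muscle, was broad. Acta2 ran from 23.3 to 19842 CPM in the CD45- wells of batch 1 with a median of 366 CPM, and from 12.4 to 19329 CPM with a median of 207 CPM in batch 2. In the CD45+ wells it ran from 0 to 5269 CPM with a median of 11.2 CPM in batch 1, and from 0 to 6353 CPM with a median of 2.18 CPM in batch 2. The gates overlapped, since 13 and 3 CD45+ wells reached 100 CPM, against 68 and 51 CD45- wells, and 7 and 2 CD45+ wells reached 1000 CPM, against 32 and 25 CD45- wells. A few wells set the CD45+ plate level. Replicate 5 held 36.1% of the Acta2 reads of the CD45+ plate of batch 1 and replicate 29 held 38.5% of those of batch 2. The log2 ratio between the gates, 2.68 and 4.87, became 3.28 without replicate 5 and 5.56 without replicate 29. Without the CD45- well with most Acta2 reads it fell, to 2.45 in batch 1 (replicate 83) and 4.73 in batch 2 (replicate 14).

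Actg2 (ENSMUSG00000059430), the gamma actin of enteric smooth muscle, was restricted to few wells. Its median was 14.6 and 7.4 CPM in the CD45- wells and 0 in both CD45+ plates, where its highest values were 11.6 and 30.8 CPM. It reached 100 CPM in 13 of 79 and 10 of 82 CD45- wells and 1000 CPM in 4 and 6 of them. Replicate 83 of batch 1 held 6578 CPM, 50.3% of that plate's Actg2 reads, followed by replicate 4 at 3390 CPM and replicate 19 at 2056 CPM. In batch 2 the highest were replicate 87 at 1831 CPM, replicate 56 at 1712 CPM and replicate 27 at 1314 CPM. The plate level was 394 and 204 CPM in CD45-, against 1.02 and 0.668 CPM in CD45+, and without replicate 83 it was 202 CPM in batch 1, where the log2 ratio moved to 6.65 from 7.61. Low levels of Actg2 were spread further than high ones. With each well thinned to 50000 reads, 63.3% of CD45- wells in batch 1 (exact Clopper-Pearson 95% interval 51.7 to 73.9%) and 37.8% in batch 2 (27.3 to 49.2%) had a read, against 5.26% (1.45 to 12.9%) and 2.56% (0.312 to 8.96%) of CD45+ wells.

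Such low levels need the near-empty wells beside them. The 16 wells left out, of 5323 to 9740 reads each, also held reads of these genes, for example 52 Acta2 reads over the 3 such CD45- wells of batch 1. That is 2452 CPM, against 2313 CPM in the kept wells of that plate. How far reads carried between wells make up the low values was not tested, so counts of wells at or above 100 CPM are given for each gene. Each of the 40 counts of such wells, 10 genes by 4 plates, stayed within 1.5 times when only wells of at least 100000 reads were used. With all kept wells, the shallow ones included, 11 of the 40 moved further, all of them higher and in the CD45+ plates. Acta2 was then at 100 CPM in 21 of 92 and 7 of 90 CD45+ wells, Myl9 in 21 and 8, and Tpm1 in 23 and 15.

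Of the myosin genes, Myl9 (ENSMUSG00000067818), which encodes the regulatory light chain that is phosphorylated to start contraction, was broad as well. Its CD45- wells ran from 50.8 to 33076 CPM with a median of 818 CPM in batch 1, and from 16.6 to 23083 CPM with a median of 304 CPM in batch 2. The CD45+ wells ran from 0 to 12906 CPM with a median of 12.7 CPM, and from 0 to 7070 CPM with a median of 2.16 CPM. Myl9 reached 100 CPM in 69 and 61 CD45- wells, against 11 and 3 CD45+ wells. Its log2 ratio was 3.32 and 5.03, which leaving out a CD45+ well took to 3.96 in batch 1 (replicate 91) and 5.65 in batch 2 (replicate 18). Leaving out a CD45- well took it to 3.16 in batch 1 (replicate 19) and 4.92 in batch 2 (replicate 56).

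Myh11 (ENSMUSG00000018830), the heavy chain of smooth muscle myosin, was carried by few wells and was the gene that the 4-fold rule did not call. It reached 100 CPM in 8 CD45- wells of each batch. In batch 1 the highest were replicate 47 at 2395 CPM, replicate 4 at 1687 CPM and replicate 66 at 957 CPM, and in batch 2 replicate 35 at 2873 CPM, replicate 22 at 1163 CPM and replicate 18 at 1052 CPM. In the CD45+ plates replicate 5 of batch 1 held 1204 CPM, and no well of batch 2 was above 8.65 CPM. The plate level was 105.5 and 101.1 CPM in CD45-, against 32.2 and 0.422 CPM in CD45+, with log2 ratios of 1.68 and 6.17. That CD45+ well of batch 1 held 92.4% of its plate's Myh11 reads. Without it the plate stood at 2.52 CPM, the log2 ratio was 4.92 and Myh11 was called too, which makes 10 of 10. Leaving out CD45- replicate 47 of batch 1 instead took the ratio there down to 1.16.

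The proteins that lie on the actin filament followed both patterns. Cald1 (ENSMUSG00000029761), caldesmon, was the gene found in most wells, at or above 100 CPM in 75 of 79 and 71 of 82 CD45- wells, against 17 of 76 and 8 of 78 CD45+ wells. Its CD45- wells ran from 41.1 to 11859 CPM with a median of 2744 CPM, and from 25.8 to 10089 CPM with a median of 1941 CPM. Its CD45+ wells ran from 0 to 4958 CPM with a median of 14.5 CPM, and from 0 to 2935 CPM with a median of 6.73 CPM. Cald1 was also the most evenly spread, with 43 and 38 wells needed to make up 90% of the reads of a CD45- plate. Caldesmon has a form outside smooth muscle as well, and counts per gene do not tell the forms apart.

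The tropomyosins bind along the groove of the actin filament. Tpm1 (ENSMUSG00000032366) ran from 26.5 to 17876 CPM with a median of 458 CPM in CD45- wells of batch 1 and from 12.96 to 12419 CPM with a median of 409 CPM in batch 2. In CD45+ wells it ran from 0 to 8119 CPM with a median of 17.9 CPM, and from 0 to 1222 CPM with a median of 4.8 CPM. It had the lowest called ratio of the 10 genes in batch 1, a log2 ratio of 2.24, with 3.41 in batch 2, and with edgeR's TMM factors the batch 1 value was 1.83, under the 4-fold rule. Those factors shift the median of all genes by -0.29 in batch 1 and -0.46 in batch 2. Without CD45- replicate 83 the Tpm1 ratio of batch 1 was 2.04, just over the 4-fold rule. Tpm2 (ENSMUSG00000028464) separated the gates more, with a median of 94.3 and 64.01 CPM in CD45- wells and 0 in both CD45+ plates. It reached 100 CPM in 38 and 36 CD45- wells, against 2 and 0 CD45+ wells, where its highest values were 947 and 29.3 CPM. The plate level was 813 and 951 CPM in CD45-, against 35.3 and 0.914 CPM in CD45+. Replicate 95 held 46.1% of the Tpm2 reads of the CD45+ plate of batch 1, and without it the log2 ratio there was 5.29 in place of 4.49. Without CD45- replicate 47 of batch 1 the Tpm2 ratio was 4.27.

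Tagln (ENSMUSG00000032085), transgelin, a small actin-binding protein of smooth muscle, was broad in batch 1 and less so in batch 2. Its CD45- wells ran from 10.4 to 10271 CPM with a median of 221 CPM, and from 0 to 6156 CPM with a median of 60.4 CPM, and 45 of 79 and 31 of 82 reached 100 CPM. The median was 0 in both CD45+ plates, and 4 of 76 and 1 of 78 wells reached 100 CPM. The plate level was 1496 and 845 CPM in CD45-, against 80.4 and 68.8 CPM in CD45+, with log2 ratios of 4.20 and 3.60. Replicate 68 held 96.1% of the Tagln reads of the CD45+ plate of batch 2 at 2957 CPM, and without it that plate stood at 2.77 CPM and the ratio at 7.81. Replicate 5 held 72.5% of those of batch 1, and without it the plate stood at 22.7 CPM and the ratio at 5.98. Leaving out a CD45- well took the ratio down, to 3.91 in batch 1 (replicate 83) and 3.31 in batch 2 (replicate 87). In the GENCODE M21 annotation, Gm48529 and Pcsk7 on the opposite strand overlap 67.9% of the exon bases of Tagln. Whether strand was used in counting is not given in the sources used here, so reads of Tagln and of these partners cannot be told apart. The same holds for 5.86% of the exon bases of Des and its partner Gm15179.

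Cnn1 (ENSMUSG00000001349), calponin, which binds actin and slows myosin, was the rarest of the 10. It reached 100 CPM in 5 of 79 and 7 of 82 CD45- wells and in 0 of 76 and 0 of 78 CD45+ wells. Replicate 83 of batch 1 held 3196 CPM and 69.99% of the plate's 4039 reads, and the next were replicate 19 at 665 CPM and replicate 42 at 566 CPM. In batch 2 replicate 56 held 1793 CPM, replicate 24 held 1122 CPM and replicate 5 held 599 CPM. Each CD45+ plate held 1 read of Cnn1, both in wells of fewer than 50000 reads, so the CPM fold of 3644 in batch 1 (exact 95% interval 654 to 143983) and 2505 in batch 2 (449 to 98972) is known only within wide bounds. Without replicate 83 the CD45- plate of batch 1 stood at 42.6 CPM in place of 138 CPM, a log2 ratio of 5.39, and without replicate 56 that of batch 2 stood at 56.2 CPM in place of 88.01 CPM, a ratio of 5.79. Thinned to 50000 reads, 0 of 76 and 0 of 78 CD45+ wells had a Cnn1 read. Taking 3 counts as the limit of a count of 0, this allows shares of up to 3.95% and 3.85%. The upper Clopper-Pearson 95% limits are 4.74% and 4.62%. Of the CD45- wells 26.6% (Clopper-Pearson 17.3 to 37.7%) and 26.8% (17.6 to 37.8%) had a read.

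Des (ENSMUSG00000026208), desmin, the muscle intermediate filament protein that ties contractile units together, was the restricted gene found in most wells of batch 2. It reached 100 CPM in 8 of 79 and 15 of 82 CD45- wells, and in 0 CD45+ wells of either batch. The highest values were 1179 CPM in replicate 58, 696 CPM in replicate 47 and 632 CPM in replicate 11 of batch 1. In batch 2 they were 877 CPM in replicate 45, 810 CPM in replicate 11 and 737 CPM in replicate 9. Des was the least concentrated of the 4 in batch 2, where its top well held 10.6% of the reads. The plate level was 67.9 and 118 CPM in CD45-, against 0.718 and 0.246 CPM in CD45+, with log2 ratios of 5.33 and 6.58.

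**Figure D2:**
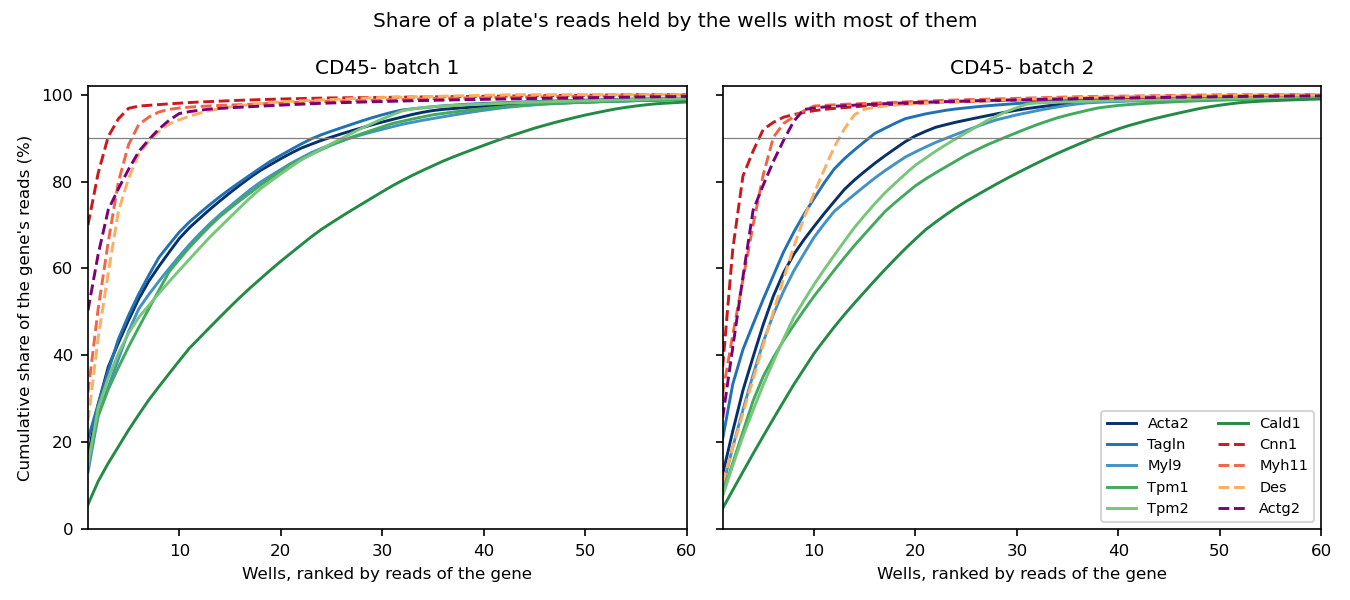
Cumulative share of a gene's reads (%) against the number of wells, ranked from most reads down, in the CD45- plates of batch 1 (left) and batch 2 (right), kept wells; the grey line marks 90%. The dashed curves of Cnn1, Myh11, Des and Actg2 pass 90% within 3 to 8 wells in batch 1 and 5 to 13 in batch 2, and the solid curves within 24 to 43 and 16 to 38.

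The division into broad and restricted genes was also described by other measures of the same counts, which do not test it. In batch 1, 3 wells held 90% of the Cnn1 reads, 6 those of Myh11, 8 those of Des and 8 those of Actg2. In batch 2 the numbers were 5, 6, 13 and 8. The broad genes needed 24 wells (Tagln) to 43 (Cald1) in batch 1 and 16 (Tagln) to 38 (Cald1) in batch 2. Des at 13 wells and Tagln at 16 thus stood close in batch 2. At 1000 CPM the broad genes still counted 21 to 57 and 15 to 49 CD45- wells, and the restricted genes 1 to 4 and 0 to 6. Scaling by length, at 100 CPM per 1000 bases of the longest transcript, gave 35 wells (Tpm2) to 67 (Myl9) for the broad genes and 4 (Myh11) to 12 (Actg2) for the restricted ones in batch 1. In batch 2 it gave 26 (Tagln) to 58 (Cald1) and 4 (Cnn1 and Myh11) to 12 (Des).

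A CD45- well usually carried several of the genes, and a CD45+ well none. The median number of the 10 genes at or above 100 CPM was 5 and 4 in CD45- wells and 0 and 0 in CD45+ wells, and the highest was 9 and 9, against 6 and 3. None reached 100 CPM in 1 of 79 and 3 of 82 CD45- wells, against 44 of 76 and 59 of 78 CD45+ wells. No well carried all 10. The number of genes of any kind with a read also differed by gate. Its median was 3978 and 3895.5 in CD45- wells, against 2724 and 2780 in CD45+ wells. What this general difference adds was not tested. Of the 161 CD45- wells, 157 had at least 1 broad gene at that level, 47 had all 6, and 49 (30.4%) had at least 1 of the restricted genes.

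**Figure D3:**
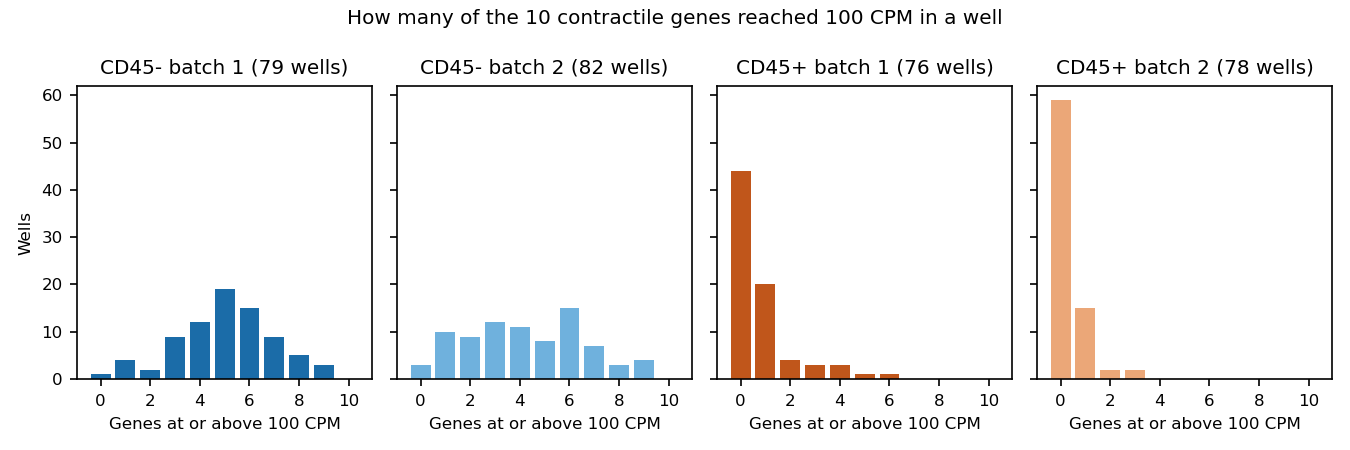
Number of wells of at least 50000 reads (y axis) by how many of the 10 contractile genes reached 100 CPM in the well (x axis), for each plate. CD45- wells centre on 5 and 4 genes, and 44 of 76 and 59 of 78 CD45+ wells stand at 0.

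Within the CD45- plates pairs of broad genes had higher correlations than pairs of restricted ones. The Pearson correlation of log2(CPM + 10) over wells, given as a description, had a median of 0.57 in batch 1 and 0.62 in batch 2 over the 15 pairs of broad genes, with a range of 0.29 to 0.77 and 0.30 to 0.73. The highest was Acta2 with Myl9 in batch 1 (0.77, 79 wells) and Acta2 with Tagln in batch 2 (0.73, 82 wells). Over the 6 pairs of restricted genes the median was 0.15 and 0.17, with Cnn1 and Actg2 at 0.52 in batch 1 and 0.22 in batch 2. Over the 24 pairs with 1 gene of each kind it was 0.30 and 0.31. The restricted genes were near 0 in most wells, which limits such correlations, so the comparison does not test the division. Wells of a plate share a library pool and differ in depth, which such values also carry. Outside the 10 genes themselves, those most like Acta2 among 3086 candidates, by the smaller r of both batches, were Mylk (0.44 and 0.47), Flna (0.42 and 0.54), Lgals1 (0.40 and 0.49), Kcnmb1 (0.40 and 0.46) and Actb (0.45 and 0.40). On the same terms, those most like Tagln were Lgals1, Serping1, Aebp1, Cnn2 and Mylk. Those outside the 10 most like Myh11 were Mcam (0.34 and 0.32), Mylk (0.52 and 0.32), Mustn1, Actn1 and Skap2. For Cnn1 they were Map1lc3a, Unc50, Rpp38, Fam213a and Sfxn3, with a smaller r of at most 0.28, too weak in counts this sparse to be a finding.

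The restricted genes overlapped in part. Of the 49 CD45- wells with at least 1 of them, 31 had only 1, which was Des in 14, Actg2 in 10, Myh11 in 5 and Cnn1 in 2. At least 2 were found in 18 wells, 3 in 7 of these, and all 4 in 0. Over both batches Actg2 shared 6 wells with Cnn1, which is 26.1% of its 23 wells and 50% of the 12 of Cnn1. It shared 7 wells with Myh11, 30.4% of its wells and 43.8% of the 16 of Myh11. Des shared 4 wells with Myh11, 17.4% of its 23 and 25% of the 16. Wells with Actg2 often held the collagen chain gene Col1a1 at or above 1000 CPM, 19 of 23 wells or 82.6%, against 81 of all 161 wells or 50.3%. Wells with Myh11 held it in 7 of 16, and 6 of them had the pericyte and smooth muscle gene Rgs5 at 100 CPM, against 25 of all 161. Wells with Des held Pdgfrb at 100 CPM in 13 of 23, against 43 of all 161, and 6 of the 11 wells with the pericyte receptor Notch3 were among them. Such traits were shared between the genes. Col1a1 was also at 1000 CPM in 17 of the 23 wells with Des, and Pdgfrb at 100 CPM in 8 of the 16 with Myh11. The endothelial gene Pecam1 was at 100 CPM in 5 of the 16 with Myh11, against 29 of all 161.

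**Figure D4:**
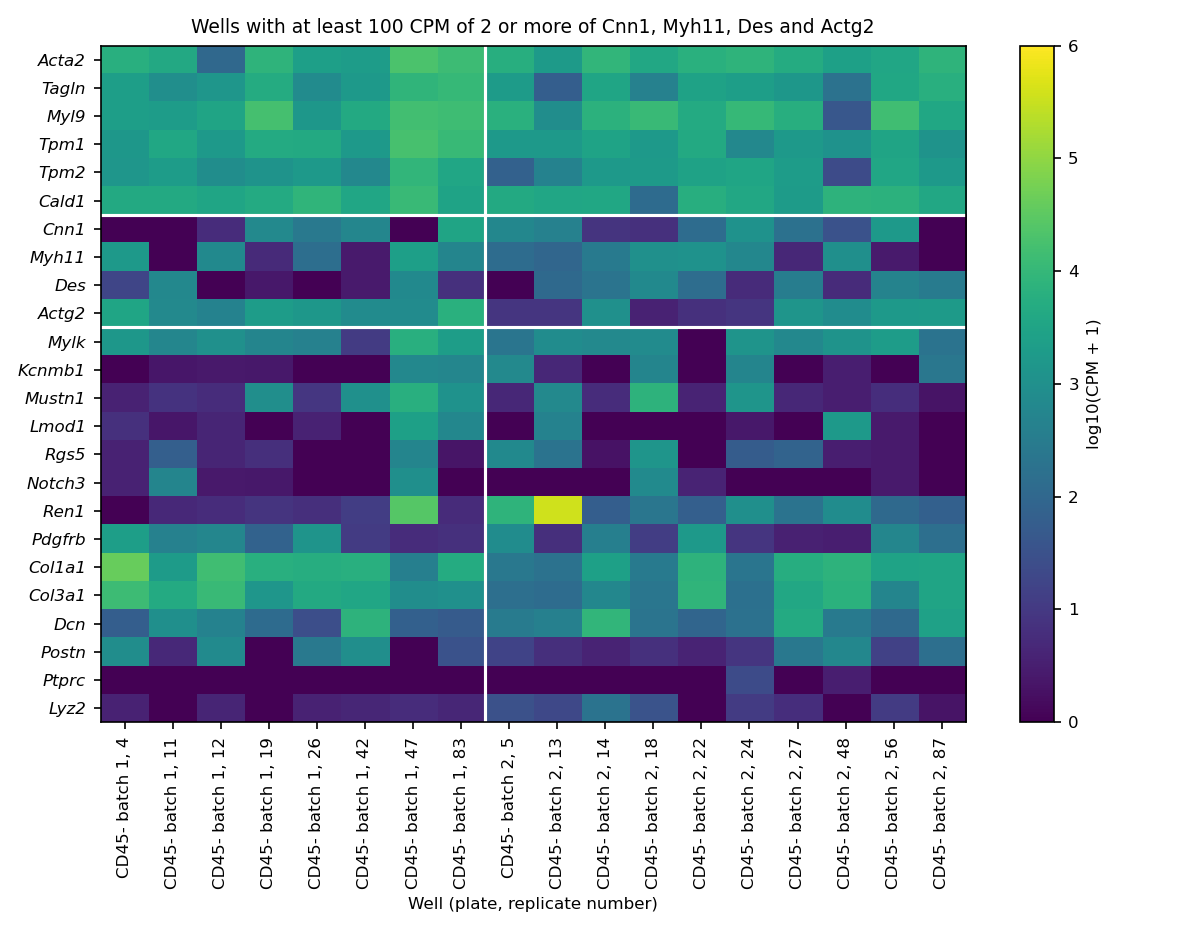
Level as log10(CPM + 1), by colour, of the 10 contractile genes and 14 other genes (rows) in the 18 CD45- wells with at least 2 of Cnn1, Myh11, Des and Actg2 at or above 100 CPM (columns, by plate and replicate number). White lines part the broad genes, the restricted genes, the other genes and the batches; Col1a1 is at or above 1000 CPM in 13 of the wells, and Ren1 reaches 377426 CPM in 1.

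The 18 wells with at least 2 restricted genes, 8 in batch 1 and 10 in batch 2, held 6 to 9 of the 10 contractile genes each, and Acta2 from 108 CPM upward. At least 2 of those 6 to 9 follow from how the wells were picked. They did not look alike. In 13 of them Col1a1 stood at or above 1000 CPM, up to 40771 CPM, against 81 of all 161 CD45- wells. All 18 had at least 4 of 10 fibroblast and matrix markers at 100 CPM, but so did most CD45- wells. Col1a1 was lower, at 183 to 398 CPM, in replicate 47 of batch 1 and in replicates 5, 13, 18 and 24 of batch 2. Of these 5, replicate 47 held 2545 CPM of Lmod1, an actin nucleator of smooth muscle, 6263 CPM of Mustn1 and 26421 CPM of Ren1, the renin gene of juxtaglomerular cells. Replicate 13 held 377426 CPM of Ren1, which lowers the CPM of every other gene in it, and replicate 5 held 7961 CPM. Replicate 18 held 1316 CPM of Rgs5, and replicate 24 held 2763 CPM of Pln, the inhibitor of the calcium pump in smooth muscle.

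Several smooth muscle markers outside the contractile genes were found together in part of these wells only, which does not settle their cell type. Mylk, the kinase of the myosin light chain, reached 100 CPM in 16 of the 18, but at least 3 of 10 smooth muscle markers that are not among the contractile genes did so in 6 wells. The other 12 had 0 to 2 of them. The 6 were replicates 47 and 83 of batch 1 and replicates 5, 13, 18 and 24 of batch 2. Among them, replicates 47, 5 and 13 are the wells with high Ren1 named above. CD45- wells outside the 18 also had at least 3, for example replicates 24 and 66 of batch 1 and replicate 35 of batch 2. Pdgfrb reached 100 CPM in 9 of 18 and had a read in all 18, Ptprc reached it in 0, and at least 2 leukocyte markers did so in 0. At least 3 of 8 endothelial markers were at 100 CPM in 2 of the wells, replicates 5 and 24 of batch 2. Red blood cell genes were at that level in 17 of 18, as in nearly all CD45- wells. More than 1 cell in a well was not tested for.

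In the CD45+ gate, 10 wells had at least 3 contractile genes at or above 100 CPM, 8 in batch 1 and 2 in batch 2. All 10 had at least 3 of 6 leukocyte markers and 131 to 10949 CPM of Lyz2, the lysozyme of macrophages. Of all CD45+ wells, 75 of 76 and 78 of 78 had at least 2 of the 6. In replicates 5, 76, 82 and 91 of batch 1 the markers that passed were Cd52, Tyrobp and Fcer1g, each at only 165 to 311 CPM. The levels of these genes in that plate were 8300, 7791 and 10038.5 CPM, so passing 100 CPM does not name these wells leukocytes. Ptprc itself reached 100 CPM in 2 of the 10, against 25 of 76 and 20 of 78 wells of the 2 CD45+ plates, and Col1a1 reached 1000 CPM in 4 of the 10. Pdgfrb had a read in 1, replicate 68 of batch 2, at 237.5 CPM. Replicate 5 of batch 1 carried most genes of all CD45+ wells, 6, with Acta2 at 5269 CPM, Tagln at 2357 CPM, Tpm1 at 4503 CPM and Myh11 at 1204 CPM, beside Col1a1 at 4351 CPM, Lyz2 at 139 CPM and Ptprc at 4.58 CPM. Replicate 86 of batch 1 held Acta2 at 2877 CPM and Cald1 at 4958 CPM, beside Ren1 at 9088 CPM, Rgs5 at 1513 CPM and Pecam1, an endothelial gene, at 1824 CPM. Replicate 95 of batch 1, with Acta2 at 1269 CPM and Tpm2 at 445 CPM, held 7591 CPM of Lyz2, 23166 CPM of Cd74 and 1.03 CPM of Col1a1. Cnn1 was at 0 in all 10 wells, and Actg2 was under 3 CPM. Whether such a well held more than 1 cell, or reads carried from other wells, was not tested.

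**Figure D5:**
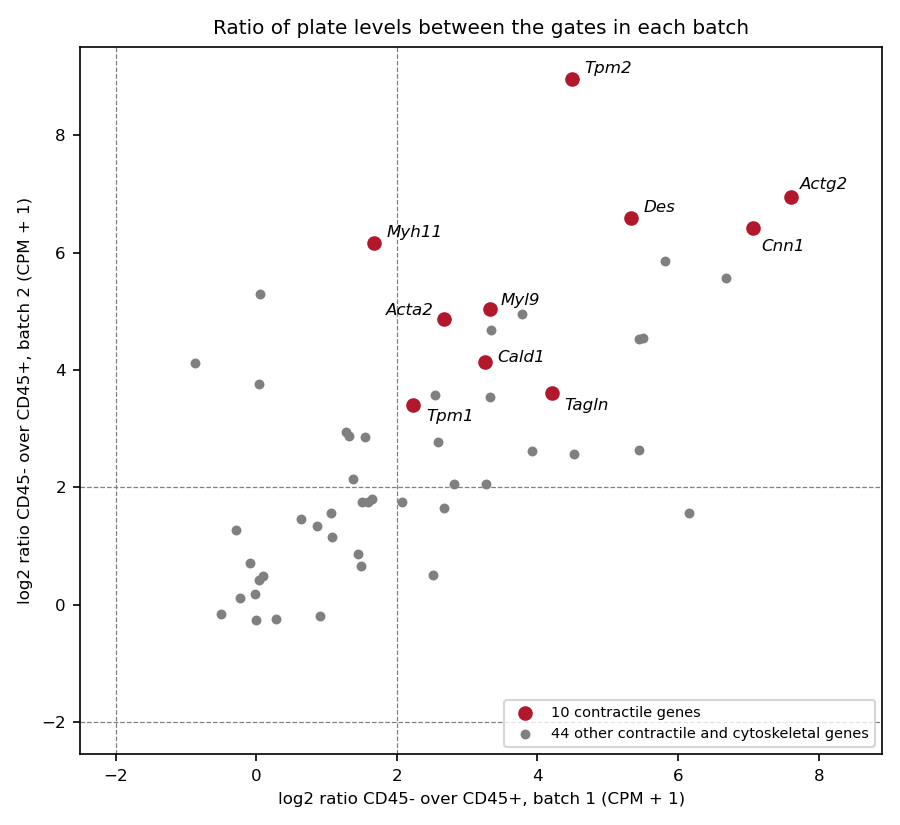
log2 ratio of plate levels (CPM + 1), CD45- over CD45+, in batch 1 (x axis) against batch 2 (y axis); each point is a gene, and dashed lines mark 4-fold. All 10 contractile genes (red) lie above 4-fold in batch 2 and 9 of them in batch 1, Myh11 at 1.68 being the exception; the 44 other contractile and cytoskeletal genes (grey) reach from below 0 to beyond 6.

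Part of the other genes of contraction and the cytoskeleton were higher in CD45- too. Of 44 such genes, 14 were called higher in CD45-, 0 in CD45+ and 30 in neither, with median log2 ratios of 1.50 and 1.77. Over all genes with a mean of at least 1 CPM, 12.9% were called higher in CD45- (8.7% at a mean of at least 30 CPM), with medians of 0.39 and 0.56. With a pseudocount of 10 CPM the 14 became 8. The called genes with the largest ratios were Lmod1 (105 and 49.8 CPM in CD45-, 0.0378 and 0.0703 CPM in CD45+), Kcnmb1, a subunit of the potassium channel that relaxes smooth muscle (5.81 and 5.86 on the log2 scale), and Pdlim3 (5.499 and 4.55). Csrp1, a LIM domain protein of the cytoskeleton (5.44 and 4.52), Vcl, vinculin of the membrane anchor of actin (3.78 and 4.96), Pdlim7 (5.44 and 2.64) and Fhl2 (3.33 and 4.67) followed. The regulators of the myosin light chain Ppp1r12b (4.51 and 2.57) and Mylk (3.33 and 3.54) and the transcription factor gene Srf (3.92 and 2.61) were also called. Leaving out CD45- replicate 13 of batch 2 took Ppp1r12b there to 0.15, and without CD45- replicate 14 or replicate 40 of that batch Srf was at 1.79 or 1.81, both then uncalled. The others called were Tgfb1i1, Actn4, Csrp2 and Hspb1, and the last 3 also turned on single wells of batch 2. Actn4 was uncalled, at 1.88 at the lowest, without any of CD45- replicates 7, 47, 56, 65 and 83 or CD45+ replicates 18 and 71. Csrp2 was uncalled, at 1.64 at the lowest, without any of CD45- replicates 34, 37, 66, 68 and 79 or CD45+ replicates 9, 24 and 71, and Hspb1 at 1.90 without CD45- replicate 27. Smtn was called without CD45+ replicate 91 of batch 1, at 4.12 and 2.85, and Ppp1r14a without CD45+ replicate 59 or 68 of batch 2, at 2.47 or 2.35 there.

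Of the genes not called, the 5 with the highest levels are given. Actb, the beta actin, had 5316 and 5089 CPM in CD45-, against 4376 and 6052 CPM in the CD45+ plates. Cryab, a small heat shock chaperone (1.07 and 1.57 on the log2 scale), Myl12a (1.08 and 1.15), Tagln2 (1.49 and 0.67) and Myl12b, a light chain of non-muscle myosin (-0.50 and -0.17), were under 4-fold in both batches. Myl12b and Tagln2, the paralogs of Myl9 and Tagln, thus had ratios below those of the contractile genes, by values and with no test. Actg1 was listed at 0.273 and 0.378 CPM in CD45- and 0.491 and 0.281 CPM in CD45+, and 37.4% of its 50-base stretches also occur in other genes, so its counts are uncertain. For Acta2 that share was 0.326% and for Actg2 0%. Myocd, the cofactor of SRF in smooth muscle, had 5 and 8 reads in the CD45- plates, against 5 and 3 in the CD45+ plates.

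Batch 2 over batch 1, the log2 ratio in CD45- ran from -0.95 for Actg2 to 0.79 for Des, with Tagln at -0.82 and Cnn1 at -0.64. The value of Cnn1 rests on replicate 83, without which its CD45- level is 88.01 CPM in batch 2 and 42.6 CPM in batch 1, the opposite direction. That well also set much of Actg2, which without it stood at 204 CPM in batch 2 and 202 CPM in batch 1. These values leave out a well of batch 1 only. Without its own top well, batch 2 stood at 56.2 CPM for Cnn1 (replicate 56) and 156 CPM for Actg2 (replicate 87). With a top well left out of both batches, Cnn1 was thus higher in batch 2 and Actg2 lower. In the CD45+ plates, Acta2 stood at 76.2 CPM in batch 2 and 361 CPM in batch 1, Tpm2 at 0.914 CPM in batch 2 and 35.3 CPM in batch 1, and Myh11 at 0.422 CPM in batch 2 and 32.2 CPM in batch 1. The labels give a batch number and no animals, so batch and animal cannot be told apart.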

How the data were processed

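The deposited values are raw read counts by gene, per the labels, and every value is a whole number. Per the labels' protocols, wells went through the Clontech SMARTer system and were sequenced from both ends, 50 bases each. STAR (listed as 3.0.4), Subread and featureCounts 1.4.5 are named in the submitters' processing notes; the genome build, annotation and strand setting are not given in the sources used here. No molecular identifiers are stated, so intervals and floors cover counting error only.

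Repeated gene lines with identical counts (598 and 595) were dropped; none was a contractile gene. Wells of at least 10000 reads and 500 genes were kept (16 left out), and no doublet caller was run. CPM of summed counts was compared on log2(CPM + 1) within each batch, a scale that understates ratios of genes near 0. A call needed at least 4-fold in both batches. As each plate is 1 sample, nothing was tested. Wells of at least 50000 reads were thinned to 50000 reads (seed 1) for shares with a read, with Clopper-Pearson 95% intervals; 3 counts give the limit that a count of 0 allows. TMM factors came from edgeR 4.0.16 in R 4.3.3, the rest from Python 3.11.15 with numpy 2.4.6, pandas 2.3.3 and scipy 1.17.1.

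The genes, lists and thresholds were chosen with earlier results of these data known. Named from the list of 44 were the 10 called genes with the largest mean log2 ratio and the 5 uncalled ones with the highest mean CPM; Actg1, Myocd, Smtn, Ppp1r14a, Pln and the other called genes were named after their values were seen. Like genes came from those outside the 10 at 100 CPM in at least 5 wells of each CD45- plate, leaving out predicted genes, pseudogenes and genes of mitochondria or ribosomal proteins. The reference annotation held 40254 of the 40594 gene identifiers.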

Additional observations from a re-analysis of the deposited data

Results flagged for a closer look

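Reads of the contractile genes were present in the 16 wells left out as near-empty, which the levels and counts of the report do not use and the alternative with all wells does, above the 3 counts that a count of 0 allows. In the 3 CD45- wells of batch 1 there were 69 reads of Myl9, 52 of Acta2, 42 of Tpm1, 39 of Cald1, 16 of Actg2, 13 of Tagln and 9 of Tpm2. The 3 CD45- wells of batch 2 held 48 reads of Myl9, 30 of Cald1, 28 of Acta2, 25 of Tpm1, 9 of Tagln, 5 of Tpm2 and 4 of Des. Fewer were found in the CD45+ wells left out, which held 14 reads of Tpm1, 12 of Myl9, 11 of Cald1 and 7 of Acta2 over 4 wells in batch 1. The 6 such CD45+ wells of batch 2 held 11 reads of Myl9, 9 of Tpm1, 8 of Acta2 and 7 of Cald1. Cnn1 and Myh11 were at 2 and 1 reads in batch 1 and 0 and 1 reads in batch 2 in the CD45- wells left out, and at 0 in those of CD45+. No well or gene was tested for what put these reads there.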

How the results depend on the processing

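The 9 contractile genes called were 8 with TMM factors, which left Tpm1 out, and 10 with each well weighted equally or at 2-fold, which added Myh11; pseudocounts of 0.1 and 10 CPM, all wells, wells of at least 50000 reads, repeated lines kept and, chosen after seeing the data, leaving out wells whose leukocyte markers go against their gate gave 9. Leaving out each of the 368 kept wells in turn gave 9 to 10, and the count changed for 1 well. The 14 other contractile genes called became 8 with a pseudocount of 10 CPM and 26 at 2-fold, and ran from 12 to 15 with each well left out. TMM factors gave 12, a pseudocount of 0.1 CPM 15, and the other settings 14. No ratio of the 10 genes changed sign under these settings; the ratio of Cnn1, with 1 read in each CD45+ plate, moved most with the pseudocount, to 9.97 and 9.35 at 0.1 CPM and to 3.88 and 3.29 at 10 CPM. Thresholds of 30 or 1000 CPM moved 19 and 25 of the 40 counts of wells at 100 CPM by over 1.5 times, the added length scaling moved 6, and using all kept wells moved 11, all in CD45+. Depth limits what can be said of Cnn1, Des and Actg2 in CD45+ wells, where 1 to 27 reads a plate were found. No paired analysis was possible because the replicate numbers only name wells in accession order and no test was run.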
